A study of Homo sapiens with 2 samples.

Results

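The CEACAM genes followed here are CEACAM1, CEACAM3, CEACAM5, CEACAM6, CEACAM7 and CEACAM8, read in A549 cells, a human lung adenocarcinoma line, after 12 days in spheroid or monolayer culture. They were chosen by name and with the higher signals of CEACAM1, CEACAM5 and CEACAM6 on these same arrays already known, so every ratio of theirs is given as a description and none is tested. All probe sets annotated with a member were taken, which gave 6 of 19775 genes and 16 of the 54675 probe sets on the array, and 0 of these 16 were annotated with another gene as well. Monolayer cells were attached and fed DMEM containing 10% FBS. Spheroid cells floated in DMEM/F12 without serum, to which bFGF at 10 ng/ml, EGF at 20 ng/ml and N2 supplement were added. The cultures thus differed in attachment, in base medium, in serum and in added factors at the same time, and the parts of these cannot be told apart. Each culture gave 1 Affymetrix Human U133 plus 2.0 array, so there is no replicate error, and a signal measured in bulk RNA does not separate more expressing cells from more RNA per cell.

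CEACAMs are glycoproteins of the immunoglobulin superfamily that bind each other across and along cell surfaces through their N-terminal domain. CEACAM1 spans the membrane, and its long cytoplasmic tail carries inhibitory motifs that recruit the phosphatases SHP-1 and SHP-2. CEACAM5, the carcinoembryonic antigen used as a serum marker of colorectal and lung adenocarcinoma, and CEACAM6 are held by a GPI anchor and are found on gut and airway epithelium. CEACAM7 is a GPI-anchored protein of colon and pancreatic duct epithelium. CEACAM3 is a transmembrane receptor with which granulocytes take up bacteria, and CEACAM8 is a GPI-anchored granulocyte antigen known as CD66b.

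The 6 genes lie on chromosome 19, and by pair the 250 bases before their annotated starts were from 54.6% to 80.5% identical. No identity between windows of other genes is given beside this range. RefSeq windows (GRCh38.p14) were found for all 6 members. The windows are shown for CEACAM5 (chr19:41708376-41708625, plus strand), CEACAM6 (chr19:41755280-41755529, plus strand) and CEACAM1 (chr19:42528482-42528731, minus strand), the genes with high ratios, and for CEACAM7 (chr19:41688271-41688520, minus strand), the neighbour of CEACAM5 with a window closest to that of CEACAM5. They run 5′ to 3′ on the strand of the gene, and capitals mark the E-box CACGTG, which reads the same on either strand, and the GC box GGGCGG, which on the opposite strand reads CCGCCC.
CEACAM5: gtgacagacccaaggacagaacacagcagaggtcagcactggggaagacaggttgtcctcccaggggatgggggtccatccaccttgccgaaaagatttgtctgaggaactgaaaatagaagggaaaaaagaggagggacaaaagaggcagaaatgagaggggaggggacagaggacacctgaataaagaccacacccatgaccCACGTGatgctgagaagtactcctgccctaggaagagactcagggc
CEACAM6: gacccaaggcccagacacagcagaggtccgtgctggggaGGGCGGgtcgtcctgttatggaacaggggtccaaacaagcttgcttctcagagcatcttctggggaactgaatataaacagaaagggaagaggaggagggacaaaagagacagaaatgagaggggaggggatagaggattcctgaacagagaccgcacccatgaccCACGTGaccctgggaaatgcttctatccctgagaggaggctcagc
CEACAM1: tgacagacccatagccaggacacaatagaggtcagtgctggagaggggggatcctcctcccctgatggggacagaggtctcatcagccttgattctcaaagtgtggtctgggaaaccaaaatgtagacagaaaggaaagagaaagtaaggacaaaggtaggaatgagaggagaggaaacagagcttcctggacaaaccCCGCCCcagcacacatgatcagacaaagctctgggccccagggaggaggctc
CEACAM7: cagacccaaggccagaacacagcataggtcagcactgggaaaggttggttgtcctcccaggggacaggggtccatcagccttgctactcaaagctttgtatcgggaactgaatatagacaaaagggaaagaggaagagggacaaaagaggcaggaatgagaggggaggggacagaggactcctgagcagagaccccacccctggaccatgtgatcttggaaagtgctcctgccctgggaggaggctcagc

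The E-box, a sequence bound by USF factors among others, began 46 bases before the start of CEACAM5 and 45 bases before that of CEACAM6, and the windows of the other 4 members did not hold these letters. Of the 35116 windows of this length in the table, 6.34% held it. The GC box, a sequence bound by SP1, was in the windows of CEACAM6, CEACAM1 and CEACAM8 and in 42.6% of all windows. The longest run common to CEACAM5 and CEACAM6 was 21 bases, cagaaatgagaggggagggga. Other pairs shared longer runs, of 25 bases for CEACAM5 and CEACAM7, 27 for CEACAM3 and CEACAM8 and 34 for CEACAM3 and CEACAM7. A run of 8 bases inside the run of 21, GAGAGGGG, was common to all 6 members and to 3.76% of all windows. Its place was not the same in all: it began 210 bases before the start of CEACAM1 and 89 to 102 bases before the other starts. Aligned over their whole length, the windows of CEACAM5 and CEACAM6 were 73.6% identical, those of CEACAM5 and CEACAM7 80.5% and those of CEACAM1 and CEACAM8, the least alike, 54.6%. These letters are given as a description and were not tested against the signals.

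CEACAM5, CEACAM6 and CEACAM1 had far higher signals in spheroid culture than in monolayer culture, while CEACAM3, CEACAM7 and CEACAM8 lay close to or under the level at which signals were read. That level, called the floor, is the median of each array, 108 in monolayer against 119 in spheroid culture. Signals below it were raised to it, a ratio with 1 culture above it is a lower bound ("at least"), and where both cultures were below it no ratio was formed. Of the 16 probe sets, 7 were higher in spheroid culture by 3-fold or more, 0 were lower by that much and 3 stayed below the floor. With both cultures above the floor, 2 more were higher and 2 were lower by less than 3-fold. The other 2, 1 of CEACAM3 and 1 of CEACAM7, gave a lower bound under 3-fold, which does not say how large the ratio was. Over all 54613 probe sets, 1.05% were higher by that much and 0.824% were lower by that much. These ratios guided the choice of the family, so nothing is read from the count against that background. The 7 belonged to CEACAM1, CEACAM5 and CEACAM6, which together have 9 probe sets. With this floor, for 0 of the 7 probe sets of CEACAM3, CEACAM7 and CEACAM8 was a ratio of 3-fold or a bound of that size measured. That depended on the floor: 1 probe set of CEACAM3 passed 3-fold with a lower floor, and 1 of CEACAM7 did with none. The median log2 value of the 13 probe sets above the floor, 4 of which gave only a lower bound, was 1.69. That of all probe sets above the floor was 0.06, and nothing is read from the 2 medians either.

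**Figure D1:**
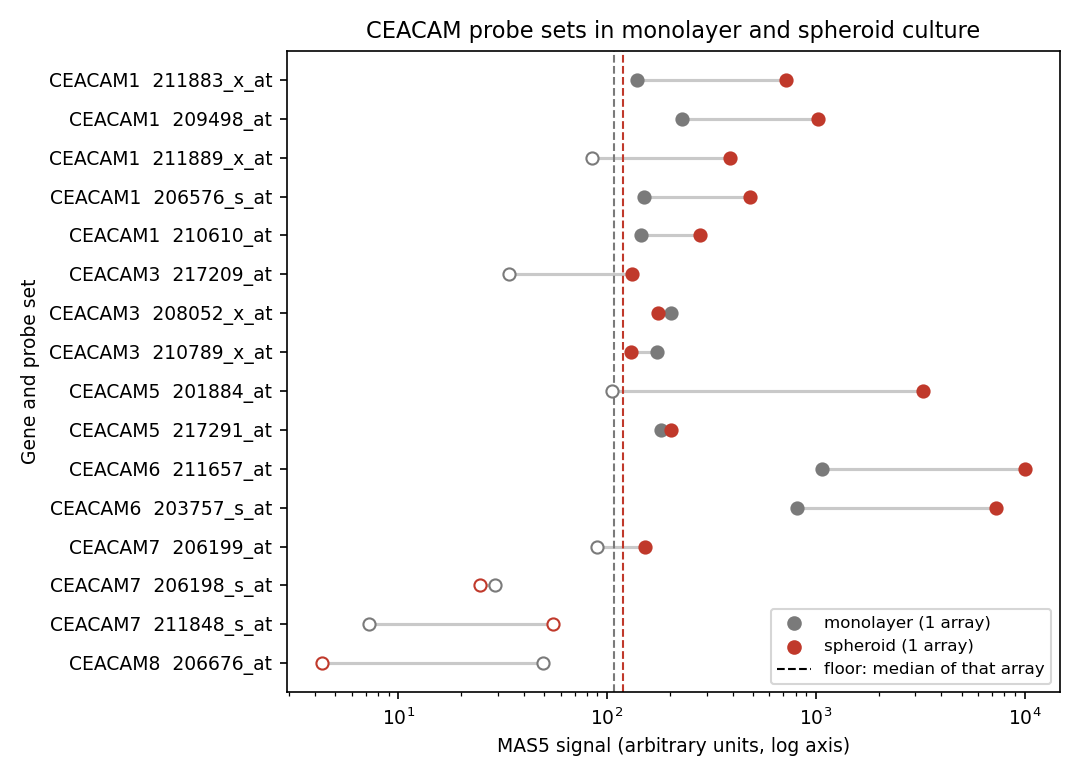
MAS5 signal (log axis) of the 16 CEACAM probe sets on the monolayer array (grey) and the spheroid array (red), with 1 array per culture and no error bars. Filled points lie above the floor of their array (dashed lines, 108 and 119) and open points below it, and CEACAM6 alone has both cultures far to the right of the floor, while the monolayer points of CEACAM1 and CEACAM5 lie close to it.

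CEACAM5 had the widest gap of the family on 1 of its probe sets. On 201884_at the signal was 105 in monolayer against 3245 in spheroid culture, so that monolayer was at the floor and the ratio was at least 30.0-fold. Of the 54613 probe sets that are not controls, 5 had a ratio as high, this probe set included. The second CEACAM5 probe set, 217291_at, read 182 in monolayer against 202 in spheroid culture, 1.11-fold higher. The gene was therefore at the floor in monolayer culture and bright in spheroid culture by the first probe set, and nearly level by the second. Their log2 ratios, at least 4.91 and 0.15, lay further apart than the SD of 0.50 found between the 2 brightest probe sets of a gene over 5453 genes. With the geometric mean of both probe sets the log2 ratio of CEACAM5 was 2.53 in place of 4.91.

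CEACAM6 was the one member well above the floor in both cultures, and both of its probe sets gave nearly the same ratio. On 211657_at the signal was 1066 in monolayer against 10010.1 in spheroid culture, 9.39-fold higher. On 203757_s_at it was 815 in monolayer against 7297 in spheroid culture, 8.95-fold higher. The log2 ratios of 3.23 and 3.16 differed by less than the spread between probe sets of a gene, and 38 and 45 of all probe sets were as high or higher. Of the members, CEACAM6 thus depended least on the floor, and its log2 ratio stayed between 3.09 and 3.26 under the alternatives that were run.

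CEACAM1 was higher in spheroid culture on all 5 of its probe sets, 4 of them by at least 3-fold. The probe set that stands for the gene, 209498_at, read 229 in monolayer against 1022 in spheroid culture, 4.46-fold higher. On 211883_x_at the signal was 139 in monolayer against 723 in spheroid culture, 5.22-fold higher. Both lay above the floor in monolayer culture, though not by much. On 206576_s_at the signals were 149.5 and 483, 3.23-fold higher. On 211889_x_at monolayer was at the floor with a signal of 84.7 against 389.7 in spheroid culture, at least 3.60-fold higher. The last, 210610_at, read 145 in monolayer against 280.2 in spheroid culture, 1.94-fold higher and short of the limit. The log2 ratios of the gene thus ran from 0.95 to 2.38, with a geometric mean of 1.81. All 5 monolayer signals were low, so with the floor at the 75th percentile of each array 209498_at gave only a lower bound, a log2 value of 1.10, which is under 3-fold. The study picked CEACAM1 from these arrays as a gene higher in spheroid culture, so its direction is not independent of that choice. Which splice forms of CEACAM1, with a long or a short tail, each probe set reads was not examined here.

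For the granulocyte proteins CEACAM3 and CEACAM8 no ratio of 3-fold was measured with the floor used here. On 208052_x_at, which stands for CEACAM3, the signal was 202 in monolayer against 176 in spheroid culture, 1.15-fold lower. On 210789_x_at it was 173 and 129.9, 1.33-fold lower. Both log2 ratios are smaller in size than the SD of 0.50 between probe sets of a gene. That SD does not measure error between arrays or cultures, so it does not say whether the cultures differed. The third CEACAM3 probe set, 217209_at, was under the floor in monolayer culture at 33.8 and just over it in spheroid culture at 132, at least 1.22-fold higher. Its log2 value was 1.90 with the floor at the 25th percentile and 1.97 with no floor. CEACAM8 was below the floor on its only probe set, 206676_at, with signals of 49.4 in monolayer against 4.30 in spheroid culture. CEACAM8 was therefore not read above the floor in either culture, and its order of signals carries no ratio.

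CEACAM7 was barely measurable. On 206199_at the signal was 89.2 in monolayer against 153 in spheroid culture, at least 1.41-fold higher. Its other probe sets, 206198_s_at with signals of 29.2 and 24.5 and 211848_s_at with 7.25 and 55.0, did not reach the floor in either. Its signals were thus low in both cultures, and little can be said of its ratio beyond that bound. The names of 8 of the 16 probe sets of the family end in _s_at or _x_at, which marks probes shared between transcripts or alike to other sequences, and the members of this family are close in sequence. The CEACAM1 probe sets of the _x_at kind had high ratios and the CEACAM3 ones did not, but how far a probe set of 1 member also reads another was not tested. Without such probe sets, 3 of 8 were at least 3-fold higher, 1 each of CEACAM1, CEACAM5 and CEACAM6.

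**Figure D2:**
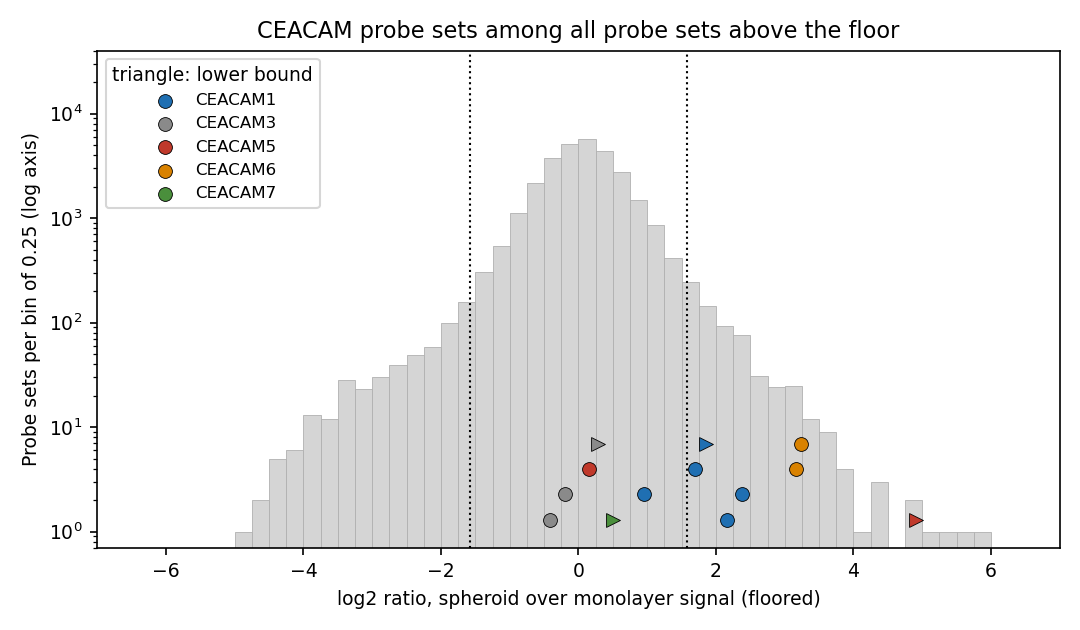
Number of probe sets (log axis) by log2 of the spheroid signal over the monolayer signal for the 29967 probe sets that passed the floor in 1 or both cultures (grey bars), with the 13 CEACAM probe sets above the floor as coloured marks whose height has no meaning. Triangles are lower bounds and dotted lines mark 3-fold, and 7 marks, all of CEACAM1, CEACAM5 or CEACAM6, lie right of the upper one, while 1 mark each of CEACAM1 and CEACAM5 and those of CEACAM3 and CEACAM7 lie between the lines.

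On the chromosome, the high ratios fell on the adjacent CEACAM5 and CEACAM6 and on CEACAM1, and no ratio or bound of 3-fold was measured for the genes beside them. In the RefSeq order of protein-coding genes, CEACAM7, CEACAM5, CEACAM6 and CEACAM3 follow each other, and CEACAM1 and CEACAM8 follow each other after 23 other genes. The high pair CEACAM5 and CEACAM6 is flanked by CEACAM7, at least 1.41-fold higher, and CEACAM3, 1.15-fold lower. CEACAM4, an orphan member next to CEACAM7, had signals of 51.3 and 173 and a log2 ratio of at least 0.68, and LYPD4, after CEACAM3, was at the floor. CXCL17, a mucosal chemokine next to CEACAM1, had signals of 20.5 and 149 with a log2 ratio of at least 0.47, and PSG3, after CEACAM8, was at the floor. From 5 genes before CEACAM7 to 5 genes after CEACAM8 the order holds 33 genes that are not members, 29 of them measured. Of these 29 genes, 15 had a ratio under 3-fold with both cultures above the floor, 8 had only a bound under 3-fold, CXCL17, CEACAM4 and ERICH4 among them, and 6 did not pass the floor. The log2 values of these 23 genes, bounds included, ran from -1.19 to 1.20 with a median of 0.08. Over all 19775 genes, each represented by the probe set of highest mean log2 signal, 1.56% were higher by 3-fold or more and 1.41% lower.

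**Figure D3:**
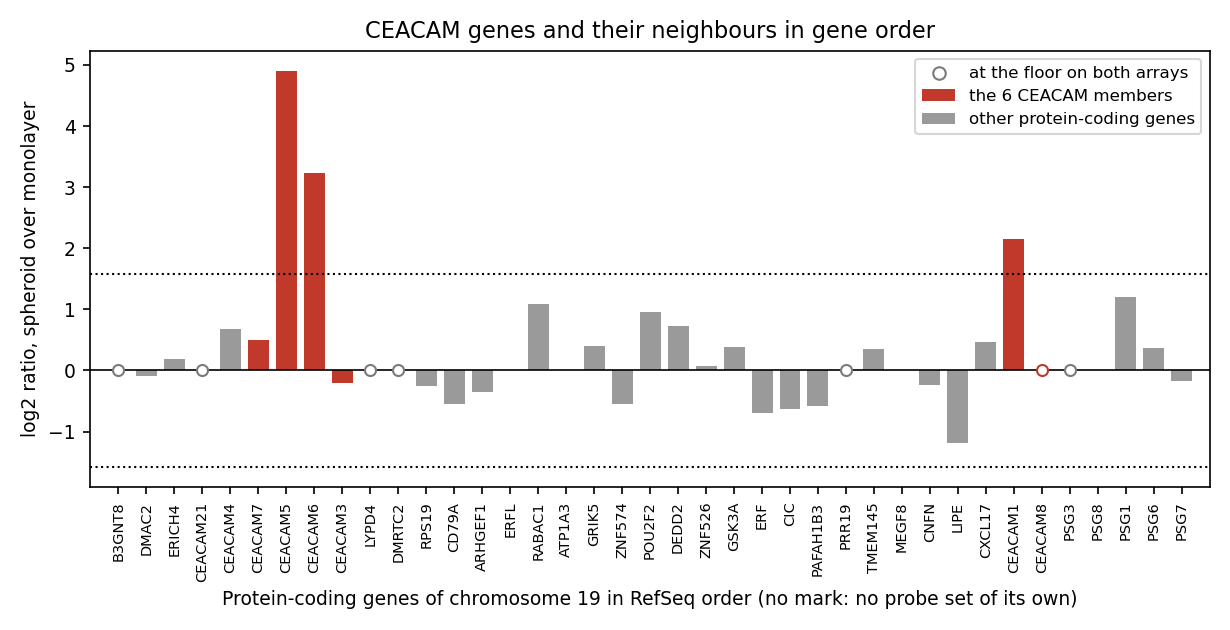
Log2 of the spheroid signal over the monolayer signal for the protein-coding genes from 5 before CEACAM7 to 5 after CEACAM8, in RefSeq order and evenly spaced, with the 6 members in red and the other genes in grey. Open circles are genes at the floor on both arrays, genes without a mark have no probe set of their own, bars with 1 culture at the floor are bounds, dotted lines mark 3-fold, and the 3 bars over the line are CEACAM5, CEACAM6 and CEACAM1.

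For relatives of the members outside the 6 genes no ratio or bound of 3-fold was measured. Of the 3 other CEACAM genes on the array, CEACAM4 gave only the bound above, CEACAM21 was at the floor and CEACAM19 was under 3-fold. CEACAM19, of unsettled function, had signals of 308 and 373, a log2 ratio of 0.27. Of the 9 pregnancy-specific glycoproteins on the array, the placental sister branch of the family, 2 had a ratio under 3-fold, 4 had only a bound under it and 3 did not pass the floor. The median log2 value of those 6 was 0.38. Their signals were low, and PSG1 had the highest log2 ratio of this branch, 1.20 from signals of 109 and 250.4, and its geometric mean over 3 probe sets was 0.40. Of the 26 other adhesion molecules of the immunoglobulin type, 17 had a ratio under 3-fold, VCAM1 had only a bound under it and 8 did not pass the floor. This rests on 1 probe set per gene and on the floor, and the study picked PECAM1, NCAM1 and CADM3 of this list from these arrays as higher in spheroid culture. Over all their probe sets, none of the 26 genes had a ratio or bound of 3-fold above the floor used here. Their median log2 value was 0.04, and -0.10 once both arrays were set to a common median, a step that took the median of all genes above the floor from 0.04 to -0.10.

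For genes of proteins that act with the members no ratio of 3-fold was measured. Of the 13 partners of CEACAM1 on the array, 12 had a ratio under 3-fold and HAVCR2 had only a bound under it, with a median log2 ratio of 0.07, or -0.07 at a common median. PTPN6 and PTPN11, which encode SHP-1 and SHP-2, had log2 ratios of 0.32 and 0.18. FASN, a fatty acid synthase that binds CEACAM1, was the highest of them at 1.06. Of 33 genes that build, attach, remodel or release GPI anchors, which CEACAM5, CEACAM6, CEACAM7 and CEACAM8 need, 32 had a ratio under 3-fold and 1 did not pass the floor. The median of the 32 was 0.12, or -0.02 at a common median. Of 33 other GPI-anchored proteins, 1 was higher and 1 lower by 3-fold or more, 15 had a ratio under that, CPM had only a bound under it and 15 did not pass the floor. The median log2 ratio above the floor was -0.15. The higher one was NT5E, the 5′-nucleotidase CD73, with signals of 603 and 2708, 4.49-fold. The lower one was CD14, a lipopolysaccharide co-receptor, at 437 in monolayer and at the floor in spheroid culture, at least 3.66-fold lower, and it passed neither floor when these were set at the 75th percentile.

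Among the factors known from work on CEACAM genes, SOX9 alone passed the limit. SOX9, a transcription factor of epithelial progenitors that acts on the CEACAM1 gene, had signals of 785 and 3989, 5.08-fold higher. The study also picked SOX9 from these arrays. Of the 13 measured regulators, 9 others had a ratio under 3-fold, 0 were lower by more and 3 did not pass the floor, and the median log2 ratio above the floor was -0.16. The 3 below it were USF1, an E-box factor, and CDX1 and CDX2, the homeobox factors of gut epithelium. USF2, the other USF factor, had a log2 ratio of 0.66 with signals of 999 and 1575. HNRNPL, HNRNPA1 and HNRNPM, splicing factors studied on CEACAM1, had log2 ratios of -0.40, -0.53 and -0.49, but HNRNPL was lower by 3-fold or more on its other probe set, with a mean over both of -1.03.

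Genes of gut and gastric epithelium, in which CEACAM5 and CEACAM6 are abundant, were higher in spheroid culture in 5 of 20 cases at 3-fold, with 0 lower. A ratio under 3-fold was measured for 4, only a bound under it for 6, DPP4, KRT20 and AGR3 among them, and 5 were below the floor. The 5 higher genes are 25% of the list, beside 1.56% of all genes, but the study picked CDH17, DPP4 and CLDN18 from these arrays, so the list is not independent of that choice. CDH17, an intestinal cadherin, had signals of 270.3 and 7979.8, 29.5-fold higher. TSPAN8, a tetraspanin of digestive tumours, had signals of 48.7 and 837, at least 7.73-fold higher. VIL1, the brush border protein villin, had signals of 67.1 and 621, at least 5.74-fold higher. TFF1, a secreted trefoil peptide of the stomach, and MUC13, a membrane mucin, were 5.72-fold and 3.36-fold higher. The median log2 value of this list was 0.97 above the floor, against 0.04 for all genes. Its summed signal was 14402 in monolayer against 36405 in spheroid culture, most of it from AGR2, a secretory disulfide isomerase with signals of 12070 and 23574, and without AGR2 the sums were 2331 and 12831. GPA33, GUCY2C, FABP1, PHGR1 and CLDN18, further markers of these tissues, passed the floor in neither culture. With the floor at the 75th percentile CDH17 still passed 3-fold, but its log2 value of 4.06 was then a lower bound. At that floor TSPAN8 (log2 0.81), TFF1 (0.79) and VIL1 (0.38) gave only bounds under 3-fold and MUC13 was at the floor. Averaged over all their probe sets, VIL1 (1.32) and MUC13 were under 3-fold. AGR2, with a log2 ratio of 0.97, was higher by 3-fold or more on its other probe set, with a mean over both of 1.41.

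Markers of other cells were set beside the members, and their part in the CEACAM ratios was not tested. Of 16 leukocyte and granulocyte genes, 2 were higher by 3-fold or more, 4 had a ratio under that, ITGB2 and ELANE had only a bound under it and 8 did not pass the floor, among the last PTPRC, the pan-leukocyte antigen CD45, and MPO, FCGR3B and LTF of neutrophils. The 2 were S100A9, 12.3-fold, and S100A8, at least 3.26-fold, which pair as calprotectin and are known from epithelium also. The 2 are 12.5% of the list, beside 1.56% of all genes, and the median log2 value of the list was -0.04. Its summed signal was 1624 in monolayer against 4231 in spheroid culture, and 1372 against 1343 without S100A8 and S100A9. S100A8 fell short of 3-fold averaged over both its probe sets (log2 ratio 0.85) and at a common median (1.57), and the study picked S100A8, S100A9 and ITGB2 from these arrays. The 12 keratins and enzymes listed as A549 markers were all above the floor, though KRT19 was low in monolayer culture at 191. The strongest, among them AKR1B10 with signals of 54097 and 69583, were bright on both arrays. Whether these genes tell A549 cells from other lines was not tested. KRT19 was 4.64-fold higher and KRT7 3.75-fold lower, both being keratins of simple epithelium, but over all their probe sets the geometric means were 1.11 and -0.48 on the log2 scale. AKR1C1 had a log2 ratio of -0.06 but was higher by 3-fold or more on another of its probe sets, with a geometric mean of 1.18. The free text that the submitters gave both samples, the same for each, mentions the hepatoma line Huh7 and a treatment with PGG at its start, while the cell line field and the methods give A549 and no such treatment. Of 10 liver and hepatoma genes, 2 were higher by 3-fold or more, 0 were lower by that much, 4 had a ratio under it, AFP had only a bound under it and 3 did not pass the floor. The 2 higher genes are 20% of this list, beside 1.56% of all genes. Its median log2 value above the floor was 1.28, higher than the 0.97 of the gut and gastric list. The summed signals were 1579 and 7455, and 1555 and 2816 without ALB. The 2 were ALB, albumin, at least 42.9-fold, and SERPINA1, alpha-1-antitrypsin, at least 5.02-fold, while AFP, the fetal albumin of hepatoma, had signals of 106 and 263. Without probe sets ending in _s_at or _x_at ALB passed the floor in neither culture, and SERPINA1 had a log2 bound of 0.18 with the floor at the 75th percentile and a log2 value of 1.26 averaged over its probe sets.

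**Figure D4:**
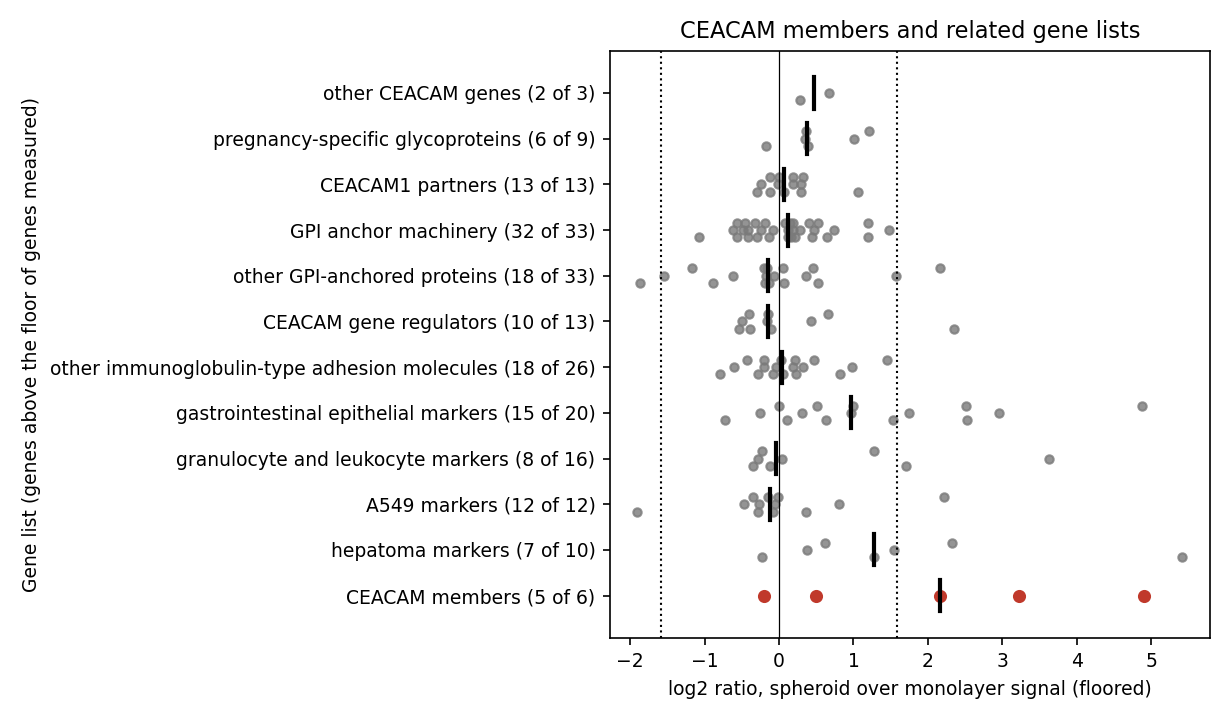
Log2 ratio of spheroid over monolayer signal by gene list, each point being 1 gene that passed the floor in a culture and each bar the median of the list, with the CEACAM members in red at the bottom. Dotted lines mark 3-fold, and the labels give how many genes of those measured are plotted. Points with 1 culture at the floor are bounds and are not marked apart, CEACAM5 and ALB among them. The high members stand beside CDH17, ALB and S100A9 as single genes with high values.

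With 1 array per culture a pattern is a single ratio, and the genes most like a member are those with the nearest log2 ratio. For CEACAM6 at 3.23 these were ANXA13, an annexin of gut and kidney epithelium, at 3.24, CPE, a carboxypeptidase of secretory granules, at 3.22, and CYP3A5, a cytochrome P450, at 3.21. For CEACAM1 at 2.16 they were SH3BGRL2, TCN2, a vitamin B12 carrier, and the histone gene H4C8, at 2.16, 2.15 and 2.16. For CEACAM5, among genes also at the floor in monolayer culture alone, they were CST1, a secreted cystatin, at a bound of 5.06, ALB at 5.42 and SIDT1, a transmembrane protein, at 4.01. Ratios this near are no sign of a relation, and nothing is read from them.

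CEACAM6 kept its ratio under every setting that was run, while those of CEACAM5 and CEACAM1 depended on how low signals and probe sets were treated. The log2 ratio of CEACAM5 ran from 2.53 to 4.95 and stayed over 3-fold, and that of CEACAM1 ran from 1.10 to 2.16. Over 11528 genes above the floor on both arrays the log2 ratios had a robust SD of 0.53. That SD is the spread between genes on 1 pair of arrays. It measures neither error between cultures nor the change between settings.

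**Figure D5:**
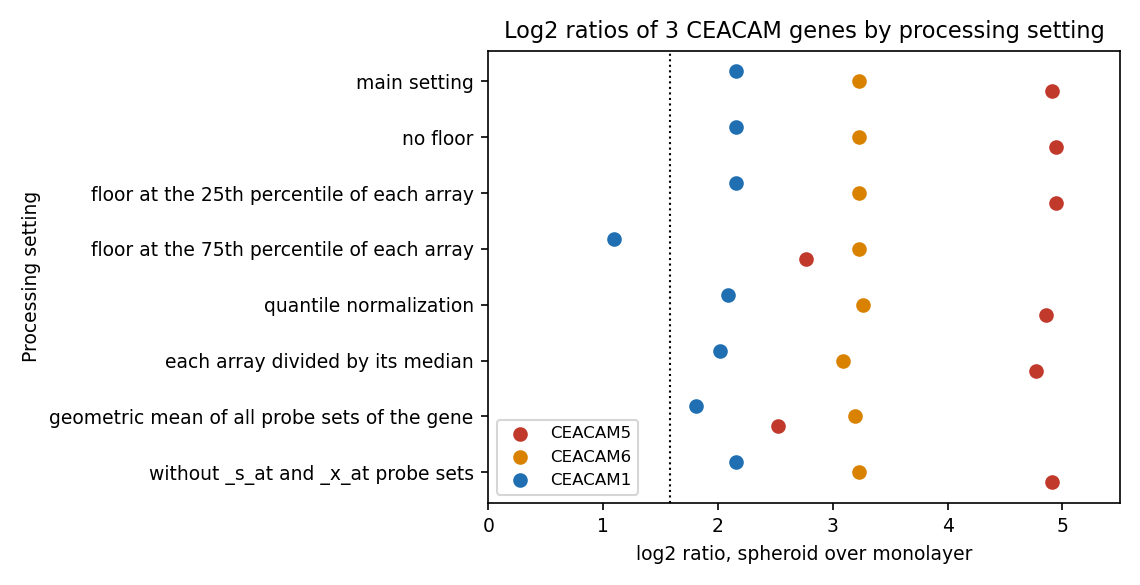
Log2 ratio of spheroid over monolayer signal of CEACAM5, CEACAM6 and CEACAM1 in the main setting and under 7 alternatives, each point being 1 value from the same pair of arrays. The dotted line marks 3-fold, and the one point left of it is CEACAM1 at 1.10, a lower bound, where the 75th percentile served as floor.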

How the data were processed

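RNA of A549 cells from 1 monolayer and 1 spheroid culture was read on 1 Affymetrix Human U133 plus 2.0 array each. The signal intensity values deposited by the authors are linear, made with MAS5 and GCOS per the labels (versions not given in the sources used here), and GeneSpring GX followed in the paper's methods. They had been scaled: trimming 2% from either end left a mean of 500.1 on both arrays. Samples were grouped by title, which gives the medium. No further scaling was applied. Signals below the median of each array over the 54613 probe sets that are not controls were raised to it, and log2 ratios of spheroid over monolayer were taken. The platform annotation gave 1 gene to 41097 probe sets, several to 1801 and none to 11777, and symbols were updated by Entrez identifier for 41043. The probe set of highest mean log2 signal stood for a gene. Where detection calls would serve, the floor did, since none were used here. With 1 array per culture no test was run, and genes were counted at a limit of 3-fold. Precision is limited by the number of arrays.

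The members, the 11 gene lists (203 entries, 188 measured) and the limit were chosen with earlier results of these arrays known. Named were all members, up to 3 genes per list and direction past the limit with all genes behind counts of 5 or fewer, next neighbours in RefSeq order and the 3 nearest ratios. Other list genes named with their values (PTPN6, PTPN11, FASN, USF2, the splicing factors, PSG1, AFP, AKR1B10, AGR2) and the genes named for having only a bound or for being picked by the study were chosen after their values were seen. Motifs were searched on both strands of the 250 bases before each RefSeq start, and windows were aligned globally. Alternatives were no floor, floors at the 25th and 75th percentile, a common median for both arrays, quantile normalization, averaging all probe sets of a gene on the log scale, leaving out names ending in _s_at or _x_at, probe sets with 1 gene only, and limits of 2-fold and 5-fold. The steps were tested on simulated data. Python 3.11.15, numpy 2.4.6, pandas 2.3.3, Biopython 1.88 and matplotlib 3.10.9 were used.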

Additional observations from a re-analysis of the deposited data

How the results depend on the processing

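Of 61 recomputed values, 49 stayed on the same side of the limit within 0.50 on the log2 scale or, for counts, within 1.5 times, 12 did not and 0 turned their direction. The number of CEACAM probe sets at least 3-fold higher, 7, was 3 with the floor at the 75th percentile, 3 without probe sets ending in _s_at or _x_at and 4 at a limit of 5-fold. It was 8 with the floor at the 25th percentile and 9 with no floor. In both, CEACAM3 217209_at was also over 3-fold (log2 1.90 and 1.97), and with no floor CEACAM7 211848_s_at was too (2.92). The monolayer signals of both probe sets lay below the floor used here. The number at least 3-fold lower, 0, was 1 with no floor, which is CEACAM8, below the floor used here on both arrays. The number at the floor in both cultures, 3, was 1 with the floor at the 25th percentile, 11 with it at the 75th and 1 without _s_at and _x_at probe sets, where fewer probe sets were left. The median log2 value above the floor, bounds included, 1.69, was 2.76 with the floor at the 75th percentile and 0.95 without _s_at and _x_at probe sets. The log2 ratio of CEACAM1, 2.16, was a lower bound of 1.10 with the higher floor, under 3-fold, since its monolayer signal then lay below the floor. For CEACAM5 the log2 ratio, 4.91, was 2.76 with the higher floor, which raises its monolayer value further, and 2.53 averaged over its 2 probe sets. No paired analysis was possible because each culture has 1 array. Signals near the floor limit what can be said of CEACAM3, CEACAM7 and CEACAM8.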
